A study of Mus musculus with 8 samples.

Results

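The genes described here are 51 textbook genes of the cell division cycle, chosen by name and grouped by the stage at which their products act. One probe set stood for each gene, the one with the highest mean over all 8 arrays. Of the 51 genes, 50 had a named probe set among the 18193 genes of the array table: 8 G1 genes, 13 DNA replication genes and 29 genes of G2 and mitosis. Ccnb1, a mitotic cyclin, was not analysed here. The cells were macrophages washed from the peritoneum of male C57BL6/J mice 4 days after injection of 3% thioglycolate, an irritant that draws macrophages into the cavity, and purified by adherence to plastic. All 4 groups carried floxed alleles of the mineralocorticoid receptor (MR, gene Nr3c2). The control groups were MR fl/fl. The knockout groups were MR fl/fl with LysM cre, a recombinase driven by the lysozyme M promoter, which is active in macrophages and other myeloid cells and not in lymphocytes or fibroblasts. For each genotype, cells were cultured for 24 h without hormone or with 1 µM corticosterone. Serum was recorded at 10% for all 8 samples. Corticosterone is the main glucocorticoid of mice and binds both the glucocorticoid receptor and the mineralocorticoid receptor. Each of the 4 groups had 2 arrays, labelled as biological replicates. The comparisons ask how corticosterone and the loss of the receptor altered cell cycle transcripts in these macrophages.

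A cell enters the cycle through G1, where D-type and E-type cyclins activate cyclin-dependent kinases and the inhibitors p21 (Cdkn1a) and p27 (Cdkn1b) hold those kinases back. Active kinases release E2F factors, which turn on the genes that license and copy DNA. Genes of G2 and mitosis follow later and encode Cdk1 with its cyclins, the spindle and kinetochore proteins, and the machinery that splits the cell. Mature macrophages mostly rest outside the cycle, although macrophages in an inflamed peritoneum can divide, and transcripts of this kind in a culture can come from a minority of dividing cells. In RNA of a whole culture, fewer cells of a type and less RNA per cell cannot be told apart.

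Values are on a log2 scale, so a difference of 1 is a doubling. The level of one gene's probe set cannot be set against another's. One array stood apart from the rest: control untreated replicate 2 had a median correlation of 0.916 with the other 7 over all genes, while each of those 7 had 0.995 or 0.996. On its beta-actin control probe sets the 3′ signal exceeded the 5′ signal by 2.18, against 0.41 to 0.62 on the other 7 arrays, a measure that rises as RNA shortens. That array is therefore described separately, and every change below comes from the other 7 arrays unless stated. The untreated control group is then 1 array, control untreated replicate 1, and the fit assumes that it varies as the other groups do. Across the 3 complete groups the median absolute difference between replicates was 0.072 to 0.096. Nr3c2 itself read 6.39 on control untreated replicate 1, 6.39 and 6.13 in treated control cells, 5.54 and 5.82 in untreated knockout cells and 5.11 and 5.47 in treated knockout cells. All 4 knockout arrays were below all control arrays, but whether this probe set reads the exons removed by the recombinase was not known.

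The 3 classes of cell cycle genes moved in the same order across the arrays but by different amounts. In each class a gene's deviation was taken from its own mean over the 7 arrays. For genes of G2 and mitosis the median deviation was 0.01 on control untreated replicate 1, -0.54 and -0.55 in treated control cells, 0.57 and 0.48 in untreated knockout cells and 0.06 and -0.13 in treated knockout cells. Untreated knockout cells were therefore highest and treated control cells lowest, with the other arrays between them. For DNA replication genes the medians followed the same order over a narrower range, from -0.31 and -0.20 in treated control cells to 0.24 and 0.31 in untreated knockout cells. For G1 genes they ran from -0.21 and -0.14 to 0.18 and 0.17.

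**Figure D1:**
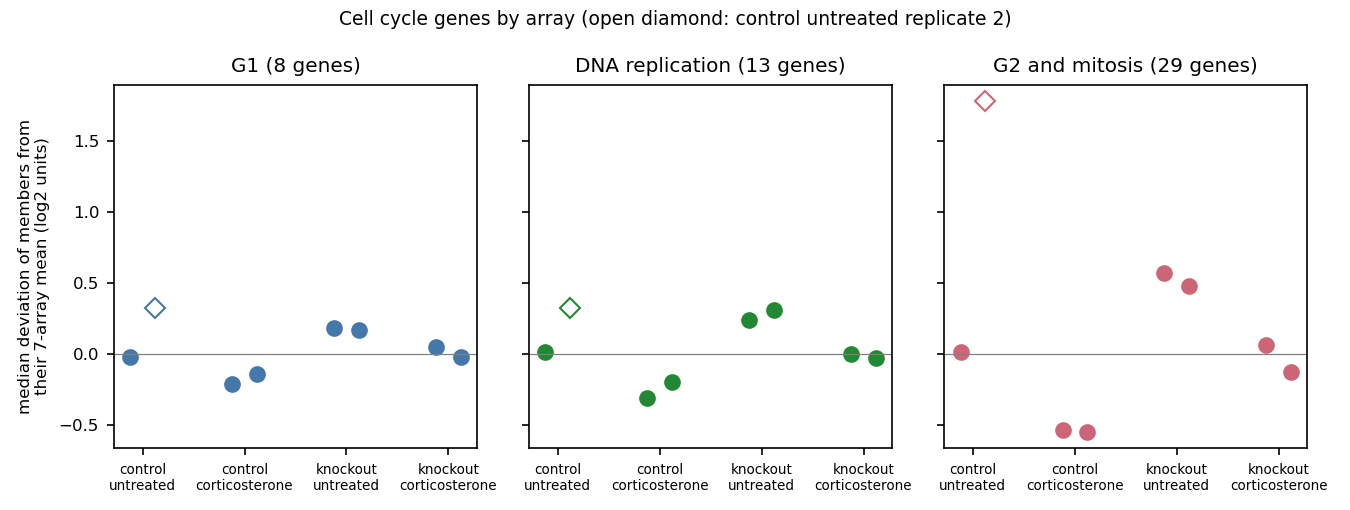
Each point is 1 array, and the vertical axis gives the median over a class's genes of the deviation from the 7-array mean, in log2 units. Among the 7 arrays, genes of G2 and mitosis range from -0.55 to 0.57 and G1 genes from -0.21 to 0.18; the open diamond, control untreated replicate 2, lies at 1.78 for G2 and mitosis.

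The promoters of these classes differ in sequence, and short stretches of them are printed to show how. The printed genes are named below with the reason for their choice. Windows of 250 bases before and 50 bases after the start of each gene, from RefSeq on the mouse build GRCm38.p6, were given for 42 of the 51 genes, in 48 windows. They were searched on both strands for 3 motifs known from cell cycle promoters. The CCAAT box, bound by NF-Y, was searched as CCAAT. The cell cycle genes homology region (CHR), through which DREAM and MuvB complexes act on late genes, was searched as TTTGAA. The E2F motif was searched as TTCCCGC and TTCGCGC, together with TTGCCGC and also TTGGCGC. In the printed promoters, which give the 250 bases before the start 5′ to 3′ on the gene's strand, capitals mark every match to any of these on either strand.

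Psrc1, Bub1b, Mcm5, Tk1 and Cdkn1a had the smallest p-values for corticosterone among genes of their class with an entry. They lie at chr3:108383554-108383803 (plus strand), chr2:118597961-118598210 (plus), chr8:75109259-75109508 (plus), chr11:117826015-117826264 (minus) and chr17:29090729-29090978 (plus). Mki67 at chr7:135716380-135716629 (minus) and Cdk1 at chr10:69352913-69353162 (minus) were added after the counts were seen, to show promoters with both a CCAAT box and a CHR match. Both also hold an E2F match, which was no part of the choice and was in 17.9% of windows of G2 and mitosis genes. Of Psrc1 and Cdkn1a the first of 2 windows is shown.
Psrc1: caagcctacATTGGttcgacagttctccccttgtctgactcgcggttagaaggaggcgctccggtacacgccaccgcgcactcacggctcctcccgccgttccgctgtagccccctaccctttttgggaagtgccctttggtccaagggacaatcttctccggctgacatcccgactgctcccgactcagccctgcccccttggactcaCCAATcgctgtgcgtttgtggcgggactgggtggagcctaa
Bub1b: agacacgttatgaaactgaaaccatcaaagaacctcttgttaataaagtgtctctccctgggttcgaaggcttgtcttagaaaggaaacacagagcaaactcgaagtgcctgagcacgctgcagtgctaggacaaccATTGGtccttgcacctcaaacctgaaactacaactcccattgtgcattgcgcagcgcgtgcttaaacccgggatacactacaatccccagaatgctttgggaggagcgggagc
Mki67: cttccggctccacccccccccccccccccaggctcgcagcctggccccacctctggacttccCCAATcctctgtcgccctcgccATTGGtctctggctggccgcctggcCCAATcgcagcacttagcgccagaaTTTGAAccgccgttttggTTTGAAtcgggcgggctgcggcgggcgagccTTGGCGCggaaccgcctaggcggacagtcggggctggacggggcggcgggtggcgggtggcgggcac
Cdk1: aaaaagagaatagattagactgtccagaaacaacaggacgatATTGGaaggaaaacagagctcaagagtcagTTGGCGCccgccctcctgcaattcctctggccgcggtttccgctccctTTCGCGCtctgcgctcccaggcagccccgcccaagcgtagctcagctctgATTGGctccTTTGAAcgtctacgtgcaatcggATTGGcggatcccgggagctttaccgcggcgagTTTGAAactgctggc
Mcm5: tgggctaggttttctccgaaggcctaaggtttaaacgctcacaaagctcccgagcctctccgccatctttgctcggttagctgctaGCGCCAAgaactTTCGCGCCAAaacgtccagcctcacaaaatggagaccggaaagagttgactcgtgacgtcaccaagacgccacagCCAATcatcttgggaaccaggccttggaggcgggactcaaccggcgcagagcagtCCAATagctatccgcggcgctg
Tk1: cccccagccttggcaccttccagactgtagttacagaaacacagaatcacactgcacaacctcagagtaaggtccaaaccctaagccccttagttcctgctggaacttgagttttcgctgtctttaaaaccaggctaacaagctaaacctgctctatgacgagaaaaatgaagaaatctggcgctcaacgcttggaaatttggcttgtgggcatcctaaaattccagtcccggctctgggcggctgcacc
Cdkn1a: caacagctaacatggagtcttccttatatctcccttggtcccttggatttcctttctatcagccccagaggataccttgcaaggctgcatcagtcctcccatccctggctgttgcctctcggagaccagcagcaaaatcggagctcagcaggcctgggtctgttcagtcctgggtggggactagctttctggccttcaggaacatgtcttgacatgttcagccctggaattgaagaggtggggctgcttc

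Mki67 and Cdk1 hold 3 CCAAT boxes and 2 CHR matches each, Bub1b holds 1 CCAAT box, Psrc1 holds 2, and neither of these last genes has a CHR match here. Mcm5 holds 2 CCAAT boxes and 3 E2F matches, the 2 nearest to the start of which overlap on opposite strands. The stretches of Tk1 and Cdkn1a hold none of the letters searched. Over the class of G2 and mitosis, 25 of 28 windows (89.3%) held a CCAAT box and 21 (75.0%) held a CHR match, against 37.4% and 17.9% of all 32851 windows given. Both motifs together were in 71.4% of these windows and in 6.95% of all windows. Of the 13 windows of DNA replication genes, 10 (76.9%) held a CCAAT box, 8 (61.5%) an E2F match and 2 (15.4%) a CHR match, where E2F matches were in 9.57% of all windows. Of the 7 windows of G1 genes, 2 (28.6%) held a CCAAT box, and neither TTTGAA nor an E2F match was in any of them. A match is a run of letters and not a bound site.

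**Figure D2:**
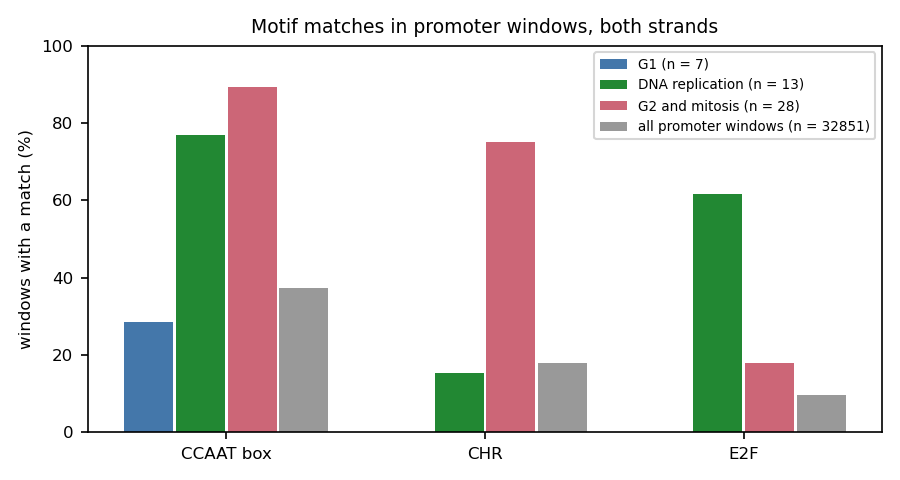
Bars give the percent of promoter windows with at least 1 match, on either strand, for each motif and gene class, with all windows in grey. CHR matches are in 75.0% of windows of G2 and mitosis genes against 15.4% of those of DNA replication genes, and E2F matches are in 17.9% against 61.5%.

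Cell cycle transcripts fell with corticosterone in both genotypes, by the largest median in G2 and mitosis. In control cells 23 of the 50 genes were lower with corticosterone at a limma adjusted p under 0.05 over all genes and none was higher, where 5.95% of all genes were called lower and 4.85% higher. In knockout cells 29 were lower and none higher, where 7.95% of all genes were called lower and 5.75% higher. The median change over the 50 genes was -0.39 in control cells and -0.42 in knockout cells, beside medians over all genes of -0.005 and -0.019. Averaged over genotypes, 37 of the 50 were lower and none higher, where 11.1% of all genes were called lower and 8.48% higher. By class those were 23 of 29 genes of G2 and mitosis with a median change of -0.56, 11 of 13 DNA replication genes with a median of -0.25, and 3 of 8 G1 genes with a median of -0.14. Treated arrays were below untreated arrays, with no overlap, for 28, 12 and 5 genes of these classes in control cells, where 40.5% of all genes did the same against the single untreated array, and for 26, 13 and 5 in knockout cells, where 28.8% did.

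The calls in single genotypes rest on few arrays. With control untreated replicate 2 added, 0 of the 50 were called in either genotype by limma, where 0.17% and 0.148% of all genes were called, although 21 in control cells and 3 in knockout cells had an unadjusted p under 0.05, and the median change was -1.17 and -0.42. Without either treated control array the count in control cells was 13, with replicate 2 in place of replicate 1 of the untreated control it was 48, where 64.2% of all genes were called, and without knockout corticosterone replicate 2 the count in knockout cells was 18. The count of 48 included genes called higher, and the 64.2% takes calls in either direction. The counts of 13 and 18 held lower calls only. Without either treated control array fewer of all genes were called in control cells as well. For the count of 18 the share of all genes is not given.

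Psrc1, which encodes a microtubule-binding protein of the mitotic spindle, changed most. It read 9.07 on control untreated replicate 1 and 8.94 and 8.96 in untreated knockout cells, and 6.69, 6.34, 6.62 and 6.59 on the 4 treated arrays. Every treated array was thus more than 2 log2 units below every untreated one. The average change was -2.45 (SE 0.09, limma adjusted p = 1.65e-07). A second probe set of the gene read 8.28, 8.20 and 8.14 without hormone and 6.17, 6.35, 6.21 and 6.06 with it.

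Mki67 encodes the proliferation marker Ki-67, which coats mitotic chromosomes. It read 7.94 in the untreated control, 6.89 and 6.74 in treated control cells, 8.62 and 8.65 in untreated knockout cells and 7.87 and 7.41 in treated knockout cells. Treated arrays were below untreated arrays within each genotype, and knockout corticosterone replicate 1 came close to the untreated control. The average change was -1.06 (SE 0.11, limma adjusted p = 0.000113). Bub1b encodes the spindle checkpoint kinase BubR1. It read 7.07 in the untreated control and 7.31 and 7.27 in untreated knockout cells, and lay between 6.22 and 6.33 on the 4 treated arrays, which did not overlap with the others. Its average change was -0.91 (SE 0.09, limma adjusted p = 6.79e-05).

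Cdk1, the kinase that drives entry into mitosis, read 8.21 in the untreated control, 7.55 and 7.66 in treated control cells, 8.79 and 9.01 in untreated knockout cells and 8.15 and 8.17 in treated knockout cells. Ccna2, the A-type cyclin of S phase and G2, read 7.93, then 7.44 and 7.49, then 8.66 and 8.75, then 8.11 and 7.92 in the same order of groups. Both genes were lowest in treated control cells, and in treated knockout cells they lay near the untreated control. The average changes were -0.67 for Cdk1 (SE 0.07, adjusted p = 0.000147) and -0.58 for Ccna2 (SE 0.07, adjusted p = 0.000348). Prc1, which bundles microtubules at the midzone for cytokinesis, fell by less, with an average change of -0.46 (SE 0.07, adjusted p = 0.00153).

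The other genes of G2 and mitosis spread widely. The next largest average changes were in Nusap1, a spindle protein, at -1.40 (SE 0.17), in the checkpoint kinase Bub1 at -1.24 (SE 0.14), in cyclin B2 (Ccnb2) at -0.92 (SE 0.14) and in survivin (Birc5), of the chromosomal passenger complex, at -0.82 (SE 0.10). Each of these was called lower in both genotypes. Top2a, the topoisomerase that untangles chromosomes, and Ube2c, which works with the anaphase-promoting complex, changed by -0.63 and -0.56 with SEs of 0.07 and 0.08. The 6 genes of the class that were not called were Plk1 (-0.37), Aurkb (-0.29), Anln (-0.26), Cdca8 (-0.17), Foxm1 (-0.15) and Aurka (-0.09). These include 3 mitotic kinases, Polo-like kinase 1 and Aurora A and B, and Foxm1, a transcription factor of G2 genes.

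Among DNA replication genes Tk1, the thymidine salvage kinase, changed most. It read 7.51 in the untreated control, 6.30 and 6.04 in treated control cells, 8.42 and 8.47 in untreated knockout cells and 7.28 and 6.90 in treated knockout cells. Its average change was -1.35 (SE 0.11, limma adjusted p = 2.6e-05), with nearly equal changes of -1.34 and -1.36 in the 2 genotypes. Mcm5, a subunit of the replicative helicase, read 9.50, then 8.60 and 8.59, then 9.66 and 9.51, then 9.08 and 8.92 in the same order of groups. Its 4 treated arrays were below its 3 untreated arrays, and its average change was -0.75 (SE 0.06, adjusted p = 1.71e-05).

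The other helicase subunits moved by less than Mcm5. Mcm2 changed by -0.47 (SE 0.08), Mcm3 by -0.31 (SE 0.04), Mcm7 by -0.18 (SE 0.05), Mcm6 by -0.17 (SE 0.03) and Mcm4 by -0.17 (SE 0.04), all called. Mcm3 read 10.19 in the untreated control, 9.92 and 9.97 in treated control cells, 10.30 and 10.42 in untreated knockout cells and 9.97 and 10.00 in treated knockout cells. Of the ribonucleotide reductase subunits, Rrm2 changed by -0.40 (SE 0.06, adjusted p = 0.00164) and Rrm1 by -0.19 (SE 0.05, adjusted p = 0.0343). Pcna, the sliding clamp of the polymerases, was called at a change of only -0.08 (SE 0.02, adjusted p = 0.0119). Cdc45, a helicase cofactor, and Tyms, which makes thymidylate, were not called, at -0.25 and -0.13.

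The G1 genes did not move as a block. Ccnd1, the cyclin D1 gene, read 11.63 in the untreated control, 11.36 and 11.32 in treated control cells, 12.02 and 12.09 in untreated knockout cells and 11.66 and 11.60 in treated knockout cells. It fell in both genotypes, with an average change of -0.36 (SE 0.03, limma adjusted p = 2.07e-05). Cdkn1a, the gene of the inhibitor p21, also fell: it read 12.07, 12.12 and 12.11 without hormone and 11.67, 11.68, 11.77 and 11.81 with it. The average change was -0.36 (SE 0.02, adjusted p = 4.07e-06), so the transcripts of an inhibitor of the cycle and of a cyclin that drives it had the same change. With control untreated replicate 2 in place of replicate 1, the Cdkn1a value was 0.05.

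Ccne2, the cyclin E2 gene, passed the threshold narrowly in the average (-0.38, SE 0.11, adjusted p = 0.0427). It read 7.11 in the untreated control, 6.71 and 6.34 in treated control cells, 7.22 and 7.04 in untreated knockout cells and 7.0 and 6.90 in treated knockout cells, and its adjusted p was 0.0639 with the replicate number as a block. The remaining 5 were not called. Ccne1 read 7.92, then 7.65 and 7.91, then 8.03 and 8.10, then 7.85 and 7.81, an average change of -0.19 (adjusted p = 0.155). Ccnd2 changed by -0.10 (SE 0.07), E2f1 by 0.02 (SE 0.05), and Cdkn1b by 0.06 (SE 0.03). Cdkn1b lay between 10.28 and 10.42 on all 7 arrays.

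**Figure D3:**
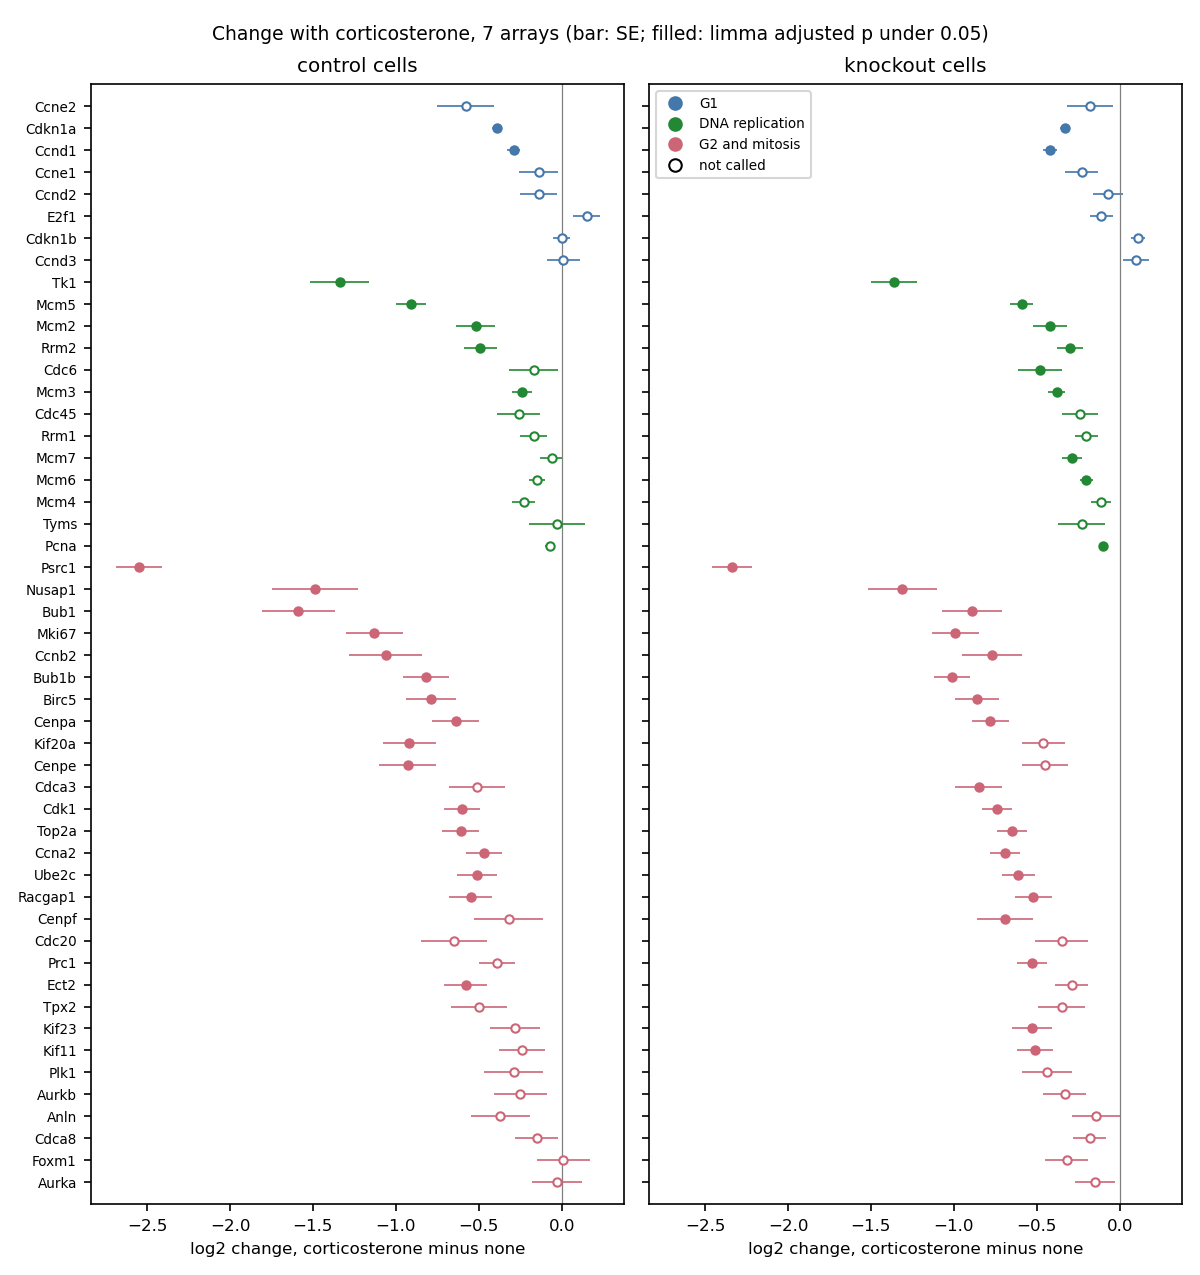
Points are log2 changes with corticosterone for each of the 50 genes in control cells (left) and knockout cells (right), bars are SEs, and filled points passed a limma adjusted p of 0.05. No filled point lies above 0; Psrc1 is farthest to the left in both panels, at -2.55 and -2.34.

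The responses of the 2 genotypes share no arrays and can be set side by side. Over the 50 genes the changes in control and knockout cells had a Pearson correlation of 0.88, given as a description across genes, which are not independent replicates, beside 0.75 over all genes. The change was below 0 in both genotypes for 46 of the 50 (92.0%), against 36.9% of all genes. Called lower in both were 20 genes, 87.0% of the calls in control cells and 69.0% of those in knockout cells.

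The difference between the responses was tested as an interaction, and limma called 0 of the 50 genes, where 0.0165% of all genes were called. At an unadjusted p under 0.05, reached by 5.85% of all genes, were 5 of the 50: Mcm5 (0.32, 95% interval 0.06 to 0.59), Mcm7 (-0.24, -0.44 to -0.03), Bub1 (0.70, 0.06 to 1.34), E2f1 (-0.26, -0.50 to -0.02) and Ccnd1 (-0.13). A positive value means a smaller fall in knockout cells. On a second probe set of Mcm5 the changes were nearly equal, -0.77 in control and -0.74 in knockout cells. For Mki67 the difference was 0.14 with a 95% interval of -0.36 to 0.64, and for Tk1 it was -0.01 with a 95% interval of -0.52 to 0.50, intervals that include the values found for Mcm5 and Mcm7. With control untreated replicate 2 in place of replicate 1, 45 of the 50 were called in the interaction, 38 of them with a positive value, where 58.7% of all genes were called. With both arrays none was called, and none had an unadjusted p under 0.05.

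Cell cycle transcripts were higher in knockout than in control macrophages, again most in G2 and mitosis. Without hormone 10 of the 50 genes were higher in knockout cells and none lower, where 1.43% of all genes were called higher and 0.555% lower, and the median difference was 0.29 beside 0.013 over all genes. With corticosterone 16 were higher and none lower, where 1.29% of all genes were called higher and 0.335% lower, and the median difference was 0.33 beside 0.0 over all genes. Averaged over hormone states, 21 were higher and none lower, where 2.95% of all genes were called higher and 1.32% lower. These were 14 of 29 genes of G2 and mitosis (median difference 0.46), 5 of 13 DNA replication genes (0.24) and 2 of 8 G1 genes (0.13). Knockout arrays were above control arrays, with no overlap, for 27, 12 and 6 genes of these classes without hormone, where 38.6% of all genes did the same, and for 23, 10 and 5 with hormone, where 21.6% did.

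The genotype differences depend on which arrays stand for the control. With all 8 arrays 0 of the 50 were called without hormone, with hormone or on average by limma, with 2, 1 and 3 at an unadjusted p under 0.05, where 0%, 0% and 0.0385% of all genes were called. The median difference over the 50 was then -0.26 without hormone, with 32 of 50 below 0, 0.33 with hormone and 0.10 on average. The average corticosterone effect then called 1 of the 50, where 0.824% of all genes were called. With control untreated replicate 2 in place of replicate 1, 34 were called lower and 9 higher in untreated knockout cells, where 27.8% of all genes were called lower and 36.5% higher. The averaged difference then called 26 lower and 11 higher, where 25.4% and 33.9% of all genes were. The comparison with corticosterone does not use the untreated control arrays except for the shared spread. There fewer of the 50 were called without control corticosterone replicate 1, control corticosterone replicate 2 or knockout corticosterone replicate 1. The median difference over the 50 was then 0.31, 0.32 and 0.27. Calls over all genes in those fits are not given here, so the lower counts are not read as a result about the cell cycle genes. Without the trend of variance on level, 0 and 1 genes were called without and with hormone, with 25 and 28 at an unadjusted p under 0.05. With each array centred on its median over genes, which moved the median of all genes to -0.105 without hormone, the calls were 10 and 12, all higher in knockout cells, where 0.929% and 1.02% of all genes were called higher, and the medians over the 50 genes were 0.17 and 0.25.

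Ccnd2, the cyclin D2 gene, had the largest difference between genotypes among the 50 when averaged over hormone states; with corticosterone alone Bub1 (1.26) and Ccnb2 (1.13) differed by more than its 1.06. It read 8.05 in the untreated control and 7.94 and 7.89 in treated control cells, against 8.97 and 9.10 in untreated and 9.09 and 8.85 in treated knockout cells. All 4 knockout arrays were above the 3 control arrays, and its change with hormone was not called in either genotype. The averaged difference was 1.02 (SE 0.07, limma adjusted p = 4.94e-05). The 6 other probe sets of Ccnd2 also had higher averages in knockout cells. On control untreated replicate 2, however, the gene read 11.64, above every knockout array, and with that array in place of replicate 1 the difference was -0.77.

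Cyclin D1 was higher in knockout cells too, by 0.36 (SE 0.03, adjusted p = 0.000125), and by 0.29 with replicate 2 of the untreated control in place of replicate 1. Ccnd3 read 8.81 in the untreated control, 8.72 and 8.91 in treated control cells, 8.84 and 8.97 in untreated knockout cells and 9.06 and 8.94 in treated knockout cells, a difference of 0.14 that was not called (adjusted p = 0.331). The inhibitors p21 and p27 were not called either, at 0.08 (Cdkn1a, adjusted p = 0.0872) and -0.01 (Cdkn1b, adjusted p = 0.957). That holds for the probe sets used. A second probe set of each inhibitor was called higher in knockout cells, at 0.19 for Cdkn1a and 0.23 for Cdkn1b.

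In DNA replication the genes called higher in knockout cells were Tk1, Rrm2, Mcm7, Cdc6 and Mcm6. Tk1 differed by 0.92 (SE 0.11, adjusted p = 0.00169), and the gap was alike without and with hormone, 0.93 and 0.92. Rrm2 read 10.96 in the untreated control and 10.42 and 10.52 in treated control cells, against 11.28 and 11.49 in untreated and 11.18 and 10.98 in treated knockout cells, a difference of 0.52 (SE 0.06, adjusted p = 0.00165). Its knockout arrays were all above its control arrays. Mcm7 read 10.16, 10.04 and 10.16 in control cells and 10.61, 10.72, 10.40 and 10.34 in knockout cells, a difference of 0.39 (SE 0.05, adjusted p = 0.0012). Of the other helicase subunits, Mcm6 was higher by 0.25 (SE 0.03, adjusted p = 0.00242), while Mcm5 (0.24, adjusted p = 0.0553), Mcm2 (0.22), Mcm3 (0.10) and Mcm4 (0.02) were not called. A second probe set of Mcm5 was called higher in knockout cells, at 0.45.

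Among genes of G2 and mitosis, Prc1 had the smallest p. It read 8.11 in the untreated control and 7.79 and 7.65 in treated control cells, against 8.99 and 8.98 in untreated and 8.57 and 8.34 in treated knockout cells. The difference was 0.80 (SE 0.07, limma adjusted p = 0.000248), and every knockout array was above these 3 control arrays. Control untreated replicate 2 read 11.47, above every knockout array. Ccna2 differed by 0.66 (SE 0.07, adjusted p = 0.000803), Top2a by 0.65 (SE 0.07, adjusted p = 0.00107), Cdk1 by 0.63 (SE 0.07, adjusted p = 0.00128) and Mki67 by 0.76 (SE 0.11, adjusted p = 0.00468). Larger differences with wider errors were seen for Ccnb2, at 0.98 (SE 0.14, adjusted p = 0.00476), and Bub1, at 0.91 (SE 0.14, adjusted p = 0.00666). Plk1, not called for the hormone, was higher in knockout cells by 0.60 (SE 0.11, adjusted p = 0.0205).

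Response to the hormone and difference between genotypes did not always go together. Psrc1, with the largest fall under corticosterone, differed between genotypes by -0.01 (SE 0.09, adjusted p = 0.968). Bub1b differed by 0.12 (SE 0.09, adjusted p = 0.56), Cenpe, a kinetochore motor, by 0.11 (SE 0.11, adjusted p = 0.682) and Kif11, the spindle motor Eg5, by 0.09 (SE 0.09, adjusted p = 0.672). The 95% intervals were -0.22 to 0.20 for Psrc1, -0.08 to 0.32 for Bub1b, -0.13 to 0.35 for Cenpe and -0.11 to 0.29 for Kif11. The last 3 include 0.25, the difference called for Mcm6.

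**Figure D4:**
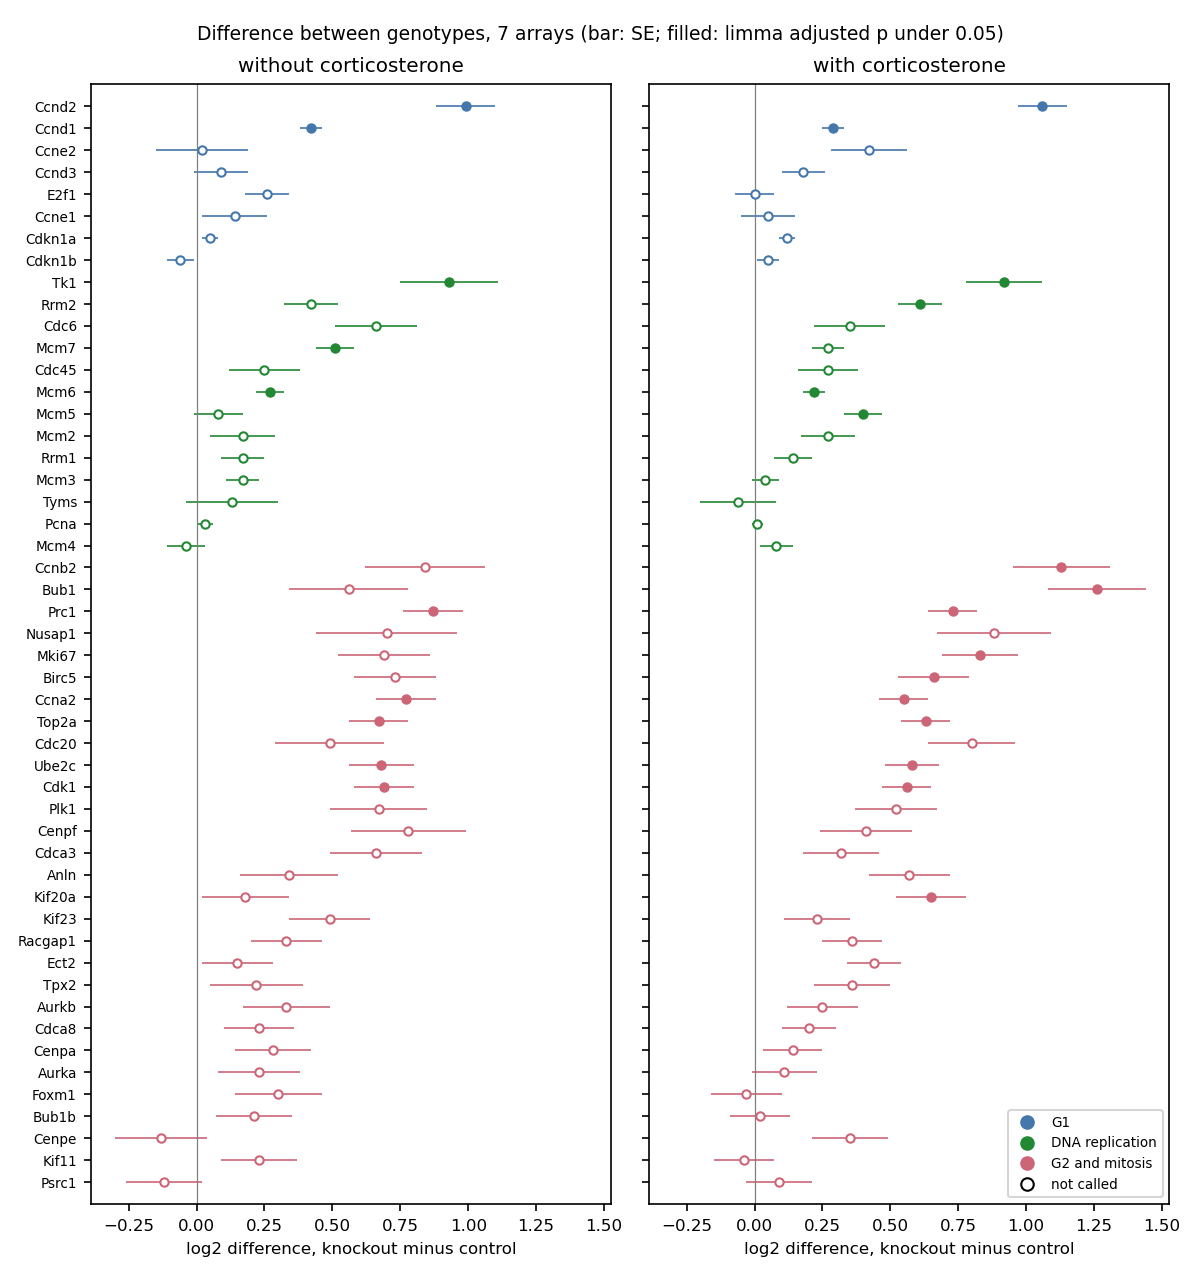
Points are log2 differences, knockout minus control, for each of the 50 genes without (left) and with (right) corticosterone, bars are SEs, and filled points passed a limma adjusted p of 0.05. All 10 filled points on the left and all 16 on the right lie above 0; Ccnd2 lies at 0.99 and 1.06.

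Other genes of the same stages, listed by textbook role, were also mostly lower with corticosterone. Averaged over genotypes, 35 of 57 other genes of G2 and mitosis were lower with corticosterone and 3 higher (median -0.38), 24 of 39 other DNA replication genes were lower and 1 higher (median -0.18), and 11 of 25 other G1 regulators were lower and 3 higher (median -0.12). Of all genes, 11.1% were called lower and 8.48% higher. Uhrf1, which carries DNA methylation through replication, read 9.95 in the untreated control, 9.34 and 9.23 in treated control cells, 10.56 and 10.54 in untreated knockout cells and 9.77 and 9.70 in treated knockout cells, an average change of -0.74 (SE 0.04, adjusted p = 2.59e-06). E2f7, an E2F repressor that peaks in S phase, changed by -1.23 (SE 0.13, adjusted p = 0.000134). Some genes went the other way: Ncapg2, a condensin II subunit, rose by 0.83 (SE 0.04, adjusted p = 8.35e-07), Cdk6, the partner kinase of D cyclins, by 0.42 (SE 0.03, adjusted p = 7.49e-06) and Cks2, a Cdk1-binding subunit, by 0.40 (SE 0.05, adjusted p = 0.000248).

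Between genotypes, averaged over hormone states, 11 of 57 other genes of G2 and mitosis were higher in knockout cells and none lower (median 0.20), as were 5 of 39 other DNA replication genes (median 0.10). Of 25 other G1 regulators 1 was higher and 1 lower (median 0.08). Of all genes, 2.95% were called higher and 1.32% lower. Hmmr, a spindle-associated protein, was higher by 0.88 (adjusted p = 0.00378) and E2f7 by 0.86 (adjusted p = 0.00637). Gadd45a, a stress gene that restrains the cycle, was lower in knockout cells, with a difference of -0.28 (adjusted p = 0.0242).

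Transcripts of other cell types moved with some of these comparisons. The mean level of 11 macrophage markers was 12.25 to 12.30 on the 3 untreated arrays and 12.46 or 12.47 on the 4 treated arrays, and in each genotype 4 of the 11 were called higher with corticosterone and 1 lower. The mean level of 9 B cell markers was 8.17 in the untreated control and 8.47 and 8.45 in untreated knockout cells, but 7.22, 7.28, 7.27 and 7.31 on the 4 treated arrays, and 7 of the 9 were called lower in each genotype. That of 10 T and NK cell markers went from 5.64, 5.84 and 5.80 to between 4.70 and 4.83. Of 8 dendritic cell markers 4 were called lower in each genotype, with changes down to -2.27, and 1 was called higher in knockout cells. Their mean level went from 6.30 to 6.46 without hormone to between 5.65 and 5.97 with it. Of 10 mast cell and basophil markers 4 and 3 were called higher in control and knockout cells, and 1 was called lower in each. Of all genes, 5.95% and 7.95% were called lower and 4.85% and 5.75% higher in control and knockout cells. The part of these cell types in the fall of cell cycle transcripts was not tested.

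Some marker lists also differed between genotypes, with few calls. Without hormone the median difference, knockout minus control, was 0.28 for B cell, 0.21 for T and NK cell, 0.25 for mast cell, 0.12 for dendritic cell and 0.10 for fibroblast and mesothelial markers, beside 0.29 for the cell cycle genes. With corticosterone it was 0.06, -0.11, 0.05, 0.31 and 0.19 in the same order, beside 0.33 for the cell cycle genes. For macrophage, neutrophil and endothelial markers it was -0.01, -0.03 and 0.08 without hormone and 0.01, -0.03 and -0.16 with it. The part of these cell types in the difference of cell cycle genes was not tested. The mean level of 18 fibroblast and mesothelial markers lay between 6.32 and 6.64 on the 7 arrays, with the highest value on knockout corticosterone replicate 1, and none was called between genotypes in either hormone state. In that group replicate 2 read above replicate 1 for 11 of the 50 cell cycle genes, with a median difference of -0.12.

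Control untreated replicate 2 would place the untreated control far above every other group for mitotic genes. Of the 29 genes of G2 and mitosis, 27 read higher there than on any other array (93.1%, against 35.0% of all genes), and 25 exceeded replicate 1 by more than 1. The median difference between the 2 untreated control arrays was 1.57 for this class, 0.28 for DNA replication genes and 0.30 for G1 genes, and -0.05 over all genes. Prc1 read 11.47 against 8.11, Ccna2 10.73 against 7.93, Mki67 10.14 against 7.94, and Ccnd2 11.64 against 8.05. Differences of the other sign were -1.22 for Tyms, -1.17 for E2f1, -0.82 for Cdkn1a and, alone in the mitotic class, -0.76 for Foxm1 and -0.73 for Psrc1. On this array the mean of the 18 fibroblast and mesothelial markers was 8.08 and that of 8 endothelial markers was 6.12, where the other 7 arrays had 6.32 to 6.64 and 4.32 to 4.74, and the macrophage mean was 11.71. Of the 18, the mesothelial markers Msln, Upk3b, Krt8, Krt18, Krt19 and Lrrn4 read lower there than on replicate 1, Krt18 at 4.62 against 6.31. The remaining markers of that list, Wt1 included, read higher, Col1a2 at 12.53 against 8.84. The part of these cell types, and of the RNA quality measured above, in the high cell cycle values was not tested.

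Many of these genes have further probe sets, annotated to the same gene. For 32 of the genes, 52 other probe sets had a mean level of at least 4.12, the lower quartile of all genes. For corticosterone, 50 of the 52 had the same sign as the probe set used, and of the 25 called, 23 were lower and 2 higher, where 16% of all probe sets were called. For the knockout 47 of 52 had the same sign, and 15 were called, all higher, where 2.92% of all probe sets were called in either direction. The gap between the untreated control arrays was less even: only 32 of 52 had the same sign, with a median of 0.12 beside 1.02 for the probe sets used. Mcm3, for example, differed by 0.24 on the probe set used and by -1.30 and -2.07 on 2 others, and Rrm1 by -0.58 and -2.52.

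The 2 higher calls came from Ccnd3 and Cdkn1b. A second probe set of Ccnd3, the cyclin D3 gene, read 4.63 in the untreated control and 5.31 and 4.35 in untreated knockout cells, but 6.73 and 6.88 in treated control and 6.95 and 7.02 in treated knockout cells. All 4 treated arrays were well above the 3 untreated ones. The change was 2.16 on average (SE 0.20, limma adjusted p = 6.33e-05) and nearly equal in control (2.17) and knockout cells (2.15). The probe set used for Ccnd3 changed by 0.06 and another by 0.19, so the result for this gene depends on the probe set. The position of each probe set on the transcript was not known, and the cause was not tested. The second probe set of Cdkn1b read 8.82, 9.08 and 9.0 without hormone and 9.13, 9.02, 9.28 and 9.35 with it, and rose by 0.27 (SE 0.05, adjusted p = 0.00642), while the probe set used changed by 0.06.

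**Figure D5:**
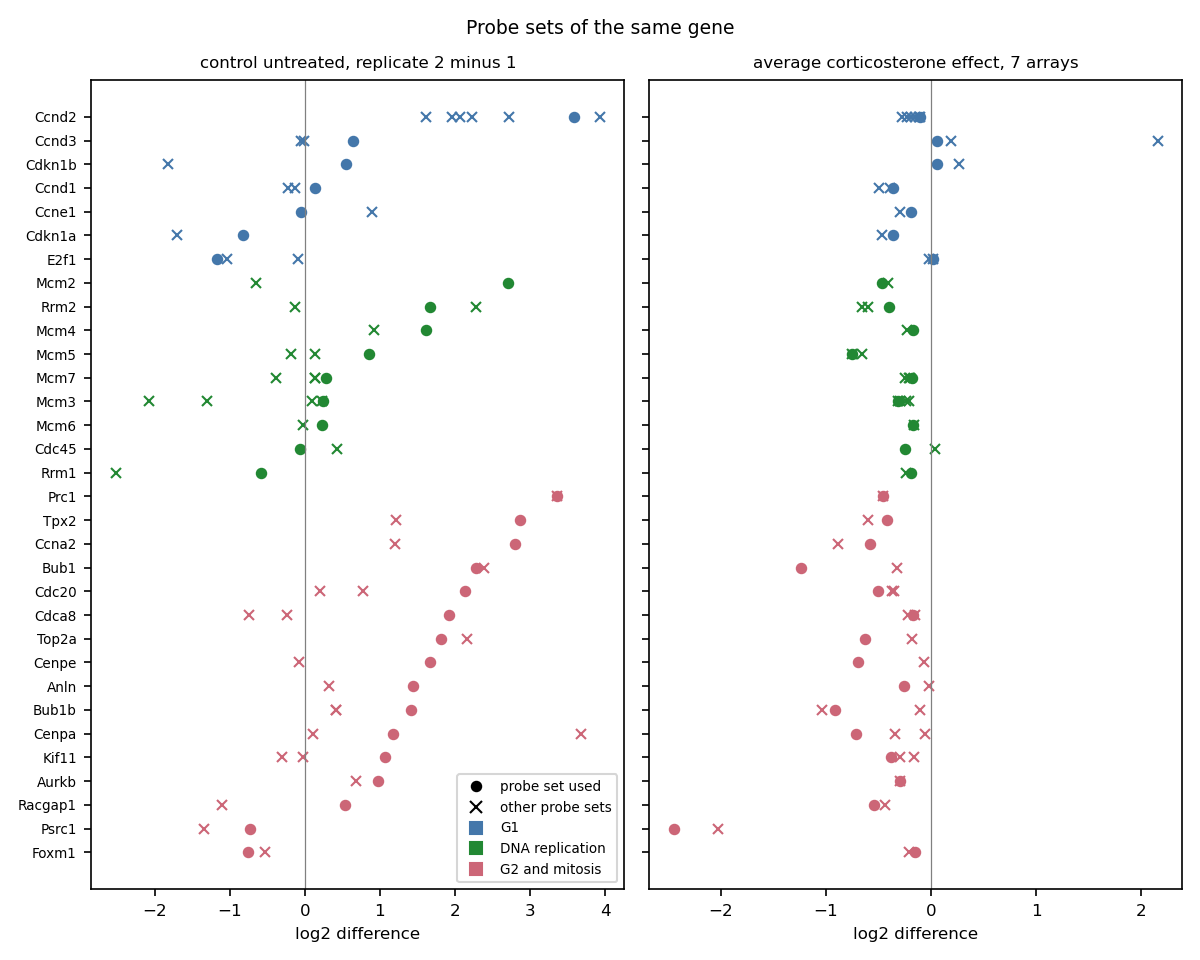
Each row is a gene with more than 1 probe set, circles are the probe sets used and crosses the others, and the horizontal axes give log2 differences. On the right the cross of Ccnd3 lies at 2.16, apart from its circle at 0.06; on the left, replicate 2 minus replicate 1 of the untreated control, circles and crosses of a gene often lie on different sides of 0.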

How the data were processed

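The data are 8 Affymetrix arrays of mouse RNA. The deposited values are log2 expression levels, made by the authors with RMA in R 2.7, per the submitters' processing notes; the number of arrays limits precision. Of 45101 probe sets, 34945 named 1 gene, 932 named several, 9160 named none and 64 were controls. For each of 18193 genes the probe set of highest mean over 8 arrays was kept; for 1 member 7 arrays would give another. No further normalization or filter was applied. limma 3.58.1 in R 4.3.3 (lmFit, eBayes with trend) was fitted to 7 arrays with 1 coefficient per group, leaving 3 residual degrees of freedom. P-values were adjusted by Benjamini-Hochberg over all genes and called under 0.05; the fit was tested on simulated data. Arrays are labelled biological replicates, and each pools triplicate experiments per the labels' protocols.

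Members and lists were chosen with earlier results of these data known. Array values are given, per class, for the 4 members with the smallest p for corticosterone and the 2 for knockout, and for Ccnd1, Ccnd2, Ccnd3, Cdkn1a, Cdkn1b, Mki67, Cdk1 and Psrc1; of the other lists, the 3 smallest p per contrast could be named. The remaining members are named by change only. The 18 members so chosen, 7 contrasts and 16 alternatives are treated in the closing section. No scan date or batch was used.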

Additional observations from a re-analysis of the deposited data

Results flagged for a closer look

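The 2 untreated control arrays differed in data kept out of the comparisons: replicate 2 exceeded replicate 1 by a median of 1.57 for genes of G2 and mitosis, 0.30 for G1 genes and 0.28 for DNA replication genes.

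Further probe sets of 4 G1 genes, which the comparisons of genes did not use, passed the limma threshold for the average corticosterone effect while the probe set used did not. The second Ccnd3 probe set, with a mean level of 5.81, changed by 2.16. That of Cdkn1b, with a mean level of 8.84, changed by 0.27. That of Ccne1, with a mean level of 7.61, changed by -0.29, and one of Ccnd2, with a mean level of 8.03, by -0.23. Groups of 2 arrays are too small to look for single outlying arrays by a gap test.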

How the results depend on the processing

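With all 8 arrays the counts of cell cycle genes called were 0 for corticosterone in control cells (23 with 7 arrays), 0 in knockout cells (29), 0 for knockout without hormone (10), 0 with hormone (16), 1 for the average corticosterone effect (37) and 0 for the average knockout effect (21). With array weights they were 0, 26, 0, 16, 1 and 0, and with 8 arrays and the replicate number as a block they were 0, 0, 0, 0, 1 and 0. Members at an unadjusted p under 0.05 in the 8-array limma fit numbered 21, 3, 2, 1, 21 and 3. Without the variance trend the counts were 10, 19, 0, 1, 27 and 7. The replicate numbers were not taken to pair the samples. Correlations of their deviations between groups ran from -0.292 to 0.397 over all genes and from -0.709 to 0.27 over the cell cycle genes. Those with the untreated control include its replicate 2, so they cannot settle whether samples were paired. With the replicate number as a block on 7 arrays the counts were 18, 27, 7, 14, 31 and 17, and 0 for the interaction, and Ccne2 lost its call in the average corticosterone effect. Leaving out 1 array at a time gave 13 to 48, 18 to 30, 5 to 43, 3 to 18, 29 to 45 and 15 to 37, and 0 to 45 for the interaction; the highest values, except that of 18, come from putting replicate 2 in place of replicate 1 of the untreated control. Knockout without hormone was 5 without either treated control array. Counts from leaving out 1 array do not show whether the cell cycle genes alone or genes at large gained or lost calls.

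The median changes moved likewise. In control cells the 8-array fits, plain, weighted or blocked, gave -0.29 for G1 genes (-0.14 with 7 arrays), -0.36 for DNA replication (-0.23) and -1.51 for G2 and mitosis (-0.55). Leaving out 1 array gave -0.48 to -0.09, -0.48 to -0.22 and -2.24 to -0.50. When replicate 1 of the untreated control was left out, replicate 2 took its place. In knockout cells leaving out 1 array gave -0.21 to -0.10, -0.35 to -0.27 and -0.65 to -0.52. The mean of all probe sets gave -0.22 for G1 and -0.35 for G2 and mitosis in control cells and -0.42 for G2 and mitosis in knockout cells. Centring gave -0.08 for G1 and -0.23 for DNA replication in knockout cells.

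Centring each array on its median changed the split of all genes called lower and higher from 101 and 261 to 236 and 169 for knockout without hormone, from 240 and 537 to 1072 and 372 for the average knockout effect, from 1082 and 882 to 673 and 738 for corticosterone in control cells, from 1447 and 1046 to 820 and 1189 in knockout cells, and from 2015 and 1543 to 1227 and 1699 on average; the cell cycle genes called kept their direction.

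Signs turned for single genes. In the average knockout effect Prc1 and Ccna2 had -0.04 each in the 8-array fits. The ranges below come from leaving out 1 array. Where that was replicate 1 of the untreated control, replicate 2 took its place, which gave the -0.77 of Ccnd2. The average knockout effect ranged from -0.77 to 1.08 for Ccnd2, -0.19 to 0.28 for Mcm5, -0.03 to 1.02 for Tk1, -0.32 to 0.57 for Rrm2, -0.10 to 0.35 for Psrc1, -0.59 to 0.15 for Bub1b, -0.34 to 0.87 for Mki67, -0.02 to 0.68 for Cdk1, -0.88 to 0.86 for Prc1, -0.74 to 0.71 for Ccna2 and -0.18 to 0.19 for Ccnd3. The average corticosterone effect ranged from -0.37 to 0.05 for Cdkn1a, -0.26 to 0.10 for Ccnd3 and -0.22 to 0.07 for Cdkn1b. With the mean of probe sets Ccnd3 had 0.80. At the level of probe sets, a fit chosen after seeing the data, 5592 of 34945 were called for the average corticosterone effect. The cause of these shifts was not tested beyond the arrays named.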
